A study of Mus musculus with 16 samples.

Results

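The 6 genes described here encode the resorption enzymes and acid transport machinery of the osteoclast, the multinucleated cell that dissolves bone. They are Ctsk, Acp5, Clcn7, Ostm1, Car2 and Ckb, and they were taken by symbol from the 55359 genes of a count table of mouse periodontal ligament, the connective tissue that joins the tooth root to the jaw bone. All 6 were found, each under 1 gene identifier, and all 6 passed the expression filter that kept 20953 genes for testing. RNA sequencing was done on poly(A)-enriched RNA, and total counts ran from 58458102 to 77468584 per library.

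The 16 libraries formed 4 groups of 4, all from wild-type male C57BL/6J mice aged 9 weeks at the procedure. The control group received nothing. In the ligature group a silk ligature encircled the left second molar of the upper jaw, which induces periodontitis, and in the trauma group composite resin raised the occlusal surface of the same molar, so that biting overloads it. The ligature plus trauma group received both. The labels name periodontal ligament, whereas the series title speaks of bone tissue, and they do not say whether a library came from 1 mouse or when after the procedure it was collected. Each p-value thus rests on how far libraries of the same group differ, in the main test pooled over all 4 groups. Part of that difference may be technical. The periodontal ligament fibroblast markers were high in every library, with a summed level (counts scaled to library size, CPM) of 41900 to 105100 CPM over 12 genes, and Postn, the gene of the matrix protein periostin, was between 6008 and 31410 CPM.

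An osteoclast seals off a patch of bone and acidifies the space beneath it. Cytosolic carbonic anhydrase 2, encoded by Car2, makes protons from carbon dioxide and water. A vacuolar proton pump moves them across the ruffled border, and chloride follows through the chloride-proton exchanger ClC-7, encoded by Clcn7, which needs its small partner Ostm1 to be stable. Cathepsin K, encoded by Ctsk, then cuts the exposed collagen in the acid, and tartrate-resistant acid phosphatase, encoded by Acp5, is the classical stain for osteoclasts. Brain-type creatine kinase, encoded by Ckb, buffers ATP in the cell. Loss of cathepsin K, ClC-7, OSTM1 or carbonic anhydrase 2 causes bone diseases with dense bone in humans.

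The promoter sequence of 5 of the genes is shown because Ctsk, Acp5 and Ckb moved together in the libraries described below. Ckb moved less closely with Ctsk and Acp5 than those moved with each other. Clcn7 and Ostm1 moved together over all 16 libraries, and less closely over a set of 13 described below. Each line gives the 250 bases before a RefSeq transcript start, 5′ to 3′ on the gene's strand, in build GRCm38.p6, for Acp5 the most downstream of its 3 starts and for Clcn7 the most upstream of its 2. Capitals mark matches on either strand to the palindromic E-box CACGTG, the E-box form CATGTG, the AP-1 motif TGANTCA, the NFAT core GGAAA or the PU.1 core GAGGAA, and the last 2 overlap where both occur in GAGGAAA.
Ctsk, chr3:95498960-95499209, plus strand: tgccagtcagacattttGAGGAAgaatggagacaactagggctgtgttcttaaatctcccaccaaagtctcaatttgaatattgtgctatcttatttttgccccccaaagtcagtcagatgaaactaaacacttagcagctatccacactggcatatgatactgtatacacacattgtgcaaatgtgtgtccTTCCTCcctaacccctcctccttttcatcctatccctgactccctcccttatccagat
Acp5, chr9:22130599-22130848, minus strand: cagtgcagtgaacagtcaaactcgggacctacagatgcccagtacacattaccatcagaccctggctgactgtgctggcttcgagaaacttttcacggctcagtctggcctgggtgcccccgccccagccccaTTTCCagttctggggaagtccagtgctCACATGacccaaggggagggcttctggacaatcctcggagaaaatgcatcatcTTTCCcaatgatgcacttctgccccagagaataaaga
Ckb, chr12:111672339-111672588, minus strand: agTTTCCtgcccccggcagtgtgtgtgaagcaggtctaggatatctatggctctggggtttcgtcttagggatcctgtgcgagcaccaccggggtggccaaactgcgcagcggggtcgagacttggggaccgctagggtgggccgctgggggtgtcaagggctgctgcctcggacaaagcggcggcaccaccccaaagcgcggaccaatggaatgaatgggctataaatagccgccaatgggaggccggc
Clcn7, chr17:25133141-25133390, plus strand: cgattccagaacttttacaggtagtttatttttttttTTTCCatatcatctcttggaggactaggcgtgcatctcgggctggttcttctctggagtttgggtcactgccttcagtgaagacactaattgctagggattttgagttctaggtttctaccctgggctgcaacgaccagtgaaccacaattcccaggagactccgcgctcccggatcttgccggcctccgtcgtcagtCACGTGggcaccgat
Ostm1, chr10:42678666-42678915, plus strand: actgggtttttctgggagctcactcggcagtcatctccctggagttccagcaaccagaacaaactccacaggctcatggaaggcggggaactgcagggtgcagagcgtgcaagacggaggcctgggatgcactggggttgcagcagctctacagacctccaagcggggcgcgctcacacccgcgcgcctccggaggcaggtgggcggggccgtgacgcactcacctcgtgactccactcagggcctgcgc

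The windows had little in common among these motifs. The Ctsk window held 2 PU.1 cores, 233 and 58 bases before the start, and the Ckb window held 1 NFAT core. The Acp5 window held an E-box of the CATGTG form 90 bases before the start and 2 NFAT cores. The Clcn7 window held the palindromic E-box 15 bases before the start and 1 NFAT core, and the Ostm1 window held none of the 5 motifs. The other Acp5 starts, at windows chr9:22135747-22135996 and chr9:22131866-22132115, had 1 NFAT core each, and the other Clcn7 start, at chr17:25136381-25136630, had 1 CATGTG form. Among 32851 RefSeq windows of the same length, 6.02% held CACGTG, 12.3% CATGTG, 6.75% TGANTCA, 55.6% GGAAA and 23.3% GAGGAA. A match is a string of letters and no evidence that a factor binds there.

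Ctsk and Acp5, the enzymes that act on the exposed matrix or mark the resorbing cell, were several-fold higher wherever a ligature was present. Ctsk (ENSMUSG00000028111.5) was at 572, 1712, 2794 and 2342 CPM in control replicates 1 to 4, and at 9370, 8809, 6788 and 6983 CPM in the ligature libraries. In the trauma libraries Ctsk was at 1287, 1577, 863 and 2416 CPM, and in the ligature plus trauma libraries at 6427, 6604, 7988 and 7736 CPM. The lowest library with a ligature stood well above the highest without one, and control replicate 1 was the lowest of all 16. Ctsk averaged 1855 ± 964 CPM in control and 7987 ± 1295 CPM in ligature (SD, n = 4), a log2 fold change of 2.11 ± 0.40 (SE, adjusted p = 0.00372). With trauma present, Ctsk rose from 1536 ± 656 to 7189 ± 787 CPM (SD, n = 4), a log2 fold change of 2.23 ± 0.40 (adjusted p = 0.00566).

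Per kilobase of exon, the level of Ctsk ranked 41st of 20881 genes in control, 66th in trauma, 6th in ligature and 12th in ligature plus trauma. At a mean of 5283 CPM per kilobase in ligature, it lay far above the related lysosomal protease cathepsin B, whose gene Ctsb was at 813 CPM per kilobase there. In control the mean levels per kilobase were 1227 for Ctsk and 595 for Ctsb.

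Acp5 (ENSMUSG00000001348.16) was at 152, 463, 741 and 667 CPM in the control libraries and at 2912, 3320, 1925 and 2231 CPM in the ligature libraries. It was at 456, 449, 231 and 1011 CPM in trauma and at 2061, 2190, 2525 and 2582 CPM in ligature plus trauma. The 8 libraries with a ligature again all lay above the 8 without, and the highest of those 8 was trauma replicate 4. The log2 fold change of Acp5 was 2.36 ± 0.46 for ligature against control (adjusted p = 0.0042) and 2.12 ± 0.45 for ligature plus trauma against trauma (adjusted p = 0.0132). The latter call was lost in the 13 libraries left without ligature replicate 2 and ligature plus trauma replicates 2 and 3, which were shifted to short transcripts (log2 fold change 2.11, adjusted p = 0.0743). Acp5 overlaps a gene on the opposite strand, 6530413G14Rik, which had at most 1.01 CPM in any library.

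Ckb, the ATP buffer, had the highest log2 fold change of the 6 genes in ligature against control. Ckb (ENSMUSG00000001270.10) was at 127, 148, 170 and 172 CPM in the control libraries and at 1331, 1617, 662 and 1035 CPM in the ligature libraries. It was at 218, 199, 100.2 and 274 CPM in trauma and at 697, 733, 1079 and 954 CPM in ligature plus trauma. As with Ctsk and Acp5, the ranges with and without a ligature did not meet. The log2 fold change of Ckb was 2.91 ± 0.32 in ligature against control (adjusted p = 0.000157) and 2.13 ± 0.31 in ligature plus trauma against trauma (adjusted p = 0.00203).

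**Figure D1:**
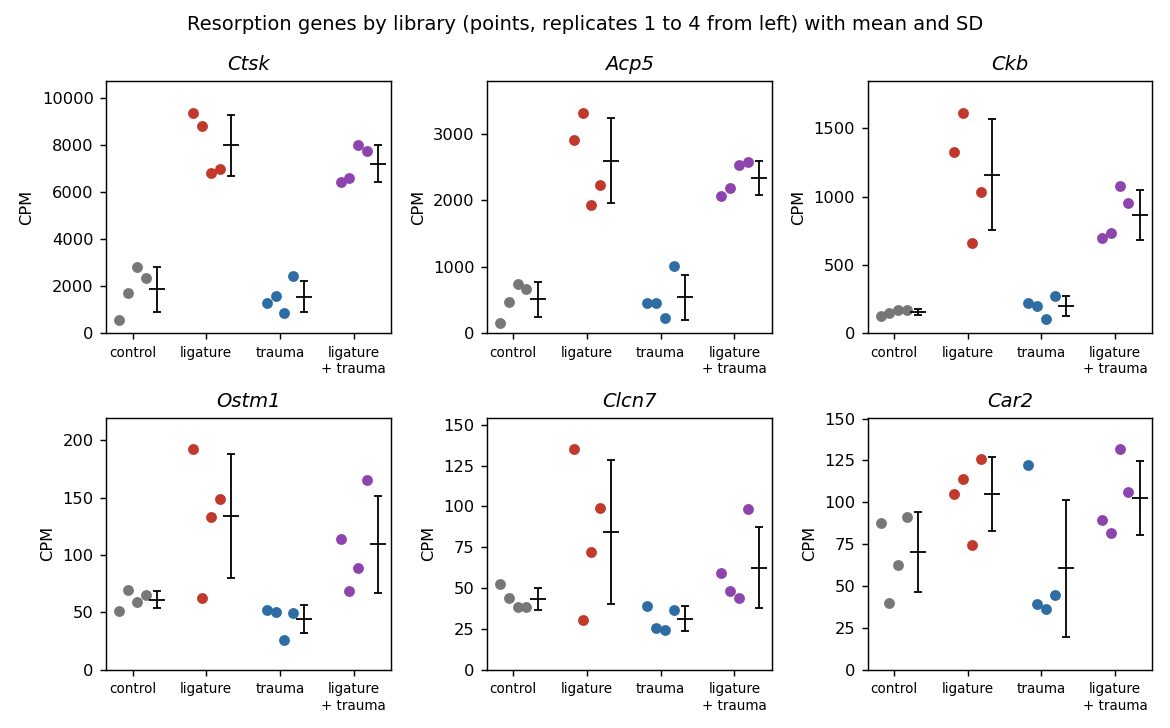
Level of each of the 6 resorption genes in CPM (y axis, linear, from 0) in every library of the 4 groups (x axis), with the group mean and SD (n = 4) to the right of the points. Ctsk, Acp5 and Ckb show no overlap between libraries with and without a ligature, whereas the points of Clcn7, Ostm1 and Car2 overlap.

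Clcn7 and Ostm1, the exchanger that carries chloride and its partner, were lower in level and wider in spread. Ostm1 (ENSMUSG00000038280.13) was at 51.3, 69.3, 59.5 and 64.8 CPM in the control libraries and at 192, 62.4, 134 and 149 CPM in the ligature libraries. It was at 52.3, 50.3, 26.0 and 49.2 CPM in trauma and at 114, 68.3, 88.7 and 166 CPM in ligature plus trauma. Ligature replicate 2 and ligature plus trauma replicate 2 lay within the control range, and the other 6 libraries with a ligature lay above every library without one. Ostm1 rose in ligature against control (log2 fold change 1.13 ± 0.33, adjusted p = 0.0383) and in ligature plus trauma against trauma (1.30 ± 0.33, adjusted p = 0.0309). The first call was lost without any 1 of control replicates 1 to 4, ligature replicates 1, 3 and 4, trauma replicate 2 or ligature plus trauma replicate 1, with adjusted p up to 0.117. The second was lost without any 1 of the 4 trauma libraries or ligature plus trauma replicates 1 and 4, with adjusted p up to 0.0988. The log2 fold change of Ostm1 in the second comparison ran from 1.03 without ligature plus trauma replicate 4 to 1.48 without ligature plus trauma replicate 2. Ostm1 overlaps the antisense gene Gm15200, which had no counts.

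Clcn7 (ENSMUSG00000036636.11) was at 52.6, 43.8, 38.5 and 38.4 CPM in control and at 135, 30.6, 72.4 and 99.2 CPM in ligature. In trauma it was at 38.7, 25.5, 24.1 and 36.6 CPM, and in ligature plus trauma at 59.5, 48.3, 43.9 and 98.2 CPM. Ligature replicate 2 fell below every control library, so that the control and ligature ranges overlapped, and the trauma and ligature plus trauma ranges did not. The log2 fold change of Clcn7 was 0.96 ± 0.36 in ligature against control (adjusted p = 0.0973) and 1.0 ± 0.36 in ligature plus trauma against trauma (adjusted p = 0.128), and neither passed.

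Whether Clcn7 passed varied with the libraries and the tool. In ligature against control, Clcn7 passed with all 16 libraries under DESeq2 (0.96, adjusted p = 0.0462) and limma-voom (1.15, adjusted p = 0.00846). In ligature plus trauma against trauma neither tool called it. Expression correlated by rank with transcript length at 0.118 to 0.164 in the 3 libraries shifted to short transcripts, against 0.221 to 0.35 in the other 13. Without ligature replicate 2, Clcn7 passed in ligature against control (log2 fold change 1.21, adjusted p = 0.0175). That library is not part of ligature plus trauma against trauma, where its removal left the log2 fold change of Clcn7 at 1.01 and moved the adjusted p alone, to 0.0334. Without ligature plus trauma replicate 2 or 3 alone, Clcn7 did not pass there. In the 13 other libraries Clcn7 passed in both, with log2 fold changes of 1.22 (adjusted p = 0.0112) and 1.33 (adjusted p = 0.0346). The exonic length of Clcn7 is 4384 bases and that of Ostm1 is 3229 bases, against 1472 to 1788 bases for the other 4 genes. With each library's trend on transcript length removed, Clcn7 passed in both comparisons as well, at 1.09 (adjusted p = 0.0159) and 1.04 (adjusted p = 0.0298). The part of transcript length in the result of either gene was not tested further.

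Car2, the source of the protons, had the lowest log2 fold change of the 6 genes in ligature against control and in ligature plus trauma against trauma. Car2 (ENSMUSG00000027562.13) was at 87.9, 39.8, 62.4 and 91.3 CPM in control and at 105, 114, 74.5 and 126 CPM in ligature. It was at 122, 39.0, 36.3 and 44.8 CPM in trauma and at 89.3, 81.9, 132 and 106 CPM in ligature plus trauma. Trauma replicate 1 lay within the range of the libraries with a ligature, while the other 3 trauma libraries lay below all of them. The log2 fold change of Car2 was 0.58 ± 0.36 in ligature against control (95% interval -0.19 to 1.35, adjusted p = 0.327) and 0.76 ± 0.36 in ligature plus trauma against trauma (interval -0.02 to 1.53, adjusted p = 0.27). Without trauma replicate 1 the latter was 1.35 (adjusted p = 0.0199).

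Carbonic anhydrase 2 is also abundant in red blood cells, and haemoglobin transcripts were present in every library. The summed level of 11 erythroid marker genes was 2888 to 15980 CPM in control, 1259 to 26290 CPM in ligature, 3591 to 7121 CPM in trauma and 3460 to 22040 CPM in ligature plus trauma. None of the 10 erythroid genes tested passed in any of the ligature comparisons. Gata1, the defining transcription factor of the lineage, was at 0 in every library of ligature and at most 0.459 CPM elsewhere. Trauma replicate 1, with the highest Car2 of its group, had an erythroid sum of 6659 CPM, below the 7121 CPM of trauma replicate 4, whose Car2 was at 44.8 CPM. By the mean log2(CPM + 1) of the same genes, which weights the haemoglobin genes less, trauma replicate 1 was the highest of its group at 5.69, against 4.27 to 4.61. Over 16 libraries, the correlation of the deviations of log2 CPM from the group means with the erythroid genes was 0.556 for Car2. It was 0.603 for Ckb, 0.542 for Acp5 and 0.455 for Ctsk, but -0.166 for Ostm1 and -0.386 for Clcn7. For Car2 it was 0.451 with osteoblast markers and 0.0372 with a list of osteoclast acid secretion genes. The part of red blood cell RNA in the level of Car2 was not tested.

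Against these counts stand the shares of all genes. In ligature against control 4 of the 6 genes passed, all higher, where 10.7% of all tested genes passed and 5.88% were higher. In ligature plus trauma against trauma the same 4 genes passed, all higher, where 5.48% of all genes passed and 2.21% were higher. The median log2 fold change of the 6 genes was 1.62 and 1.71 in these comparisons, and that of all genes was -0.05 and -0.02. Ctsk, Acp5 and Ckb were higher in each of 64 pairs of a library with and a library without a ligature, a separation seen upwards for 2.57% of all tested genes. Taken by comparison, 9.97% of genes lay apart upwards in ligature against control, 10.8% in ligature plus trauma against control and 5.74% in ligature plus trauma against trauma. The corresponding count was 61 pairs for Ostm1, 56 for Clcn7 and 53 for Car2. In bulk tissue, more cells of a type and more RNA per cell cannot be told apart.

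Ligature plus trauma against control shares libraries with both comparisons above. There Ckb rose by 2.49 ± 0.32 (adjusted p = 0.000512), Acp5 by 2.21 ± 0.45 (adjusted p = 0.00714) and Ctsk by 1.95 ± 0.40 (adjusted p = 0.00663) on the log2 scale. Ostm1 was at 0.84 ± 0.33 (adjusted p = 0.1), Car2 at 0.54 ± 0.36 (adjusted p = 0.334) and Clcn7 at 0.53 ± 0.36 (adjusted p = 0.336). The 3 genes that passed did so where 12.5% of all genes passed and 6.83% were higher. Ostm1 passed in the 13 libraries (1.19, adjusted p = 0.0303) and with each library's trend on transcript length removed (0.96, adjusted p = 0.0314). It also passed without ligature replicate 2 (0.82, adjusted p = 0.0407), a library that is not part of this comparison.

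**Figure D2:**
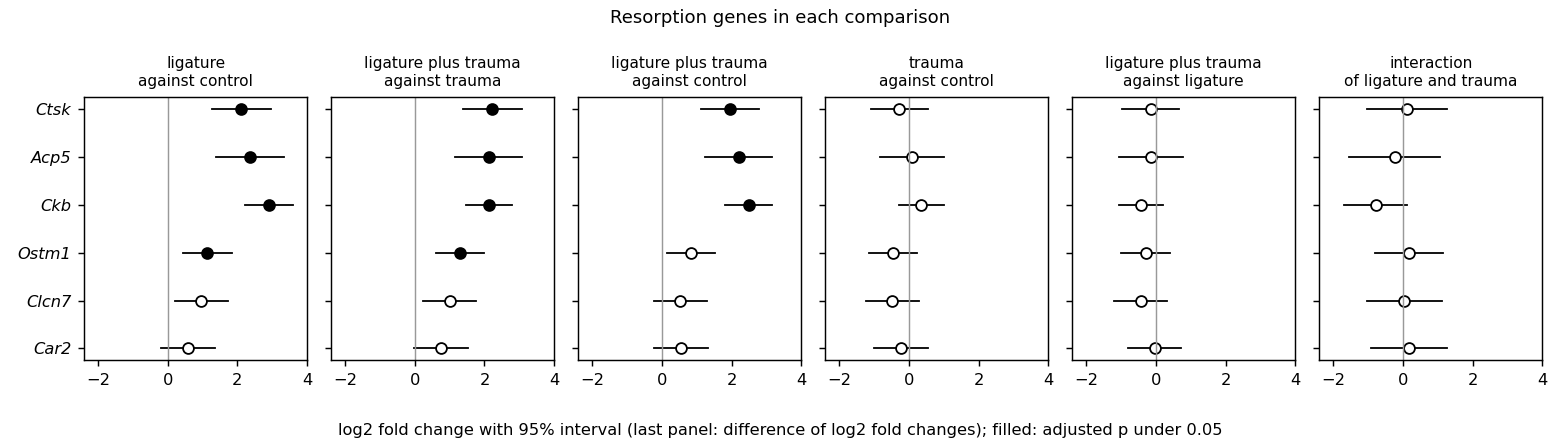
Log2 fold change of each resorption gene (x axis) with its 95% interval in the 5 comparisons, and in the last panel the difference between the ligature effect with and without trauma, on the same scale. Filled circles have an adjusted p under 0.05 in edgeR's quasi-likelihood test. The filled circles lie in the 3 panels that compare groups with and without a ligature.

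The study asked, by its title, what overload of the tooth does to bone resorption in ligature-induced periodontitis. Trauma alone was not seen to move any of the 6 genes. In trauma against control 1 of 20953 genes passed, which is 0.00477%, and 1450 had an unadjusted p under 0.05 (DESeq2 called 114 genes). The ranges of the 2 groups overlapped for all 6 resorption genes. Their log2 fold change ran from -0.47 for Clcn7 (95% interval -1.23 to 0.28) to 0.36 for Ckb (interval -0.28 to 0.999), with adjusted p from 0.792 to 0.974. For Ctsk it was -0.27 (interval -1.08 to 0.54) and for Acp5 0.09 (interval -0.83 to 1.003). The sign of the Acp5 value rested on single libraries, since it was -0.22 without control replicate 1. The widest of these intervals was that of Acp5.

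Nor was a difference seen when trauma was added to a ligature. In ligature plus trauma against ligature edgeR called 0 of 20953 genes, 734 had an unadjusted p under 0.05 and DESeq2 called 31. All 6 members had lower means with both, with log2 fold changes from -0.43 for Clcn7 (95% interval -1.19 to 0.32) and -0.42 for Ckb (interval -1.06 to 0.22) to -0.04 for Car2 (interval -0.81 to 0.73). The ranges of ligature and ligature plus trauma overlapped for every member. Ctsk was at -0.15 (interval -0.96 to 0.66) and Acp5 at -0.15 (interval -1.07 to 0.77). The upper ends of the intervals lay between 0.22 and 0.77 for the 6 genes, which does not show that the groups are alike.

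The difference between the ligature effects with and without trauma was tested as an interaction, for which edgeR called 0 genes, 1032 had an unadjusted p under 0.05 and DESeq2 called 51. Ckb had the largest value of the 6, with a ligature effect lower by 0.78 ± 0.43 on the log2 scale with trauma (95% interval -1.69 to 0.12, unadjusted p = 0.0848, adjusted p = 0.999922). The other 5 lay between -0.24 and 0.18, with standard errors of 0.46 to 0.61.

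The 6 genes differed in how far they moved with a ligature. The ratio of every pair of members was taken in each library, 15 ratios in all, and its mean log2 difference between libraries with and without a ligature was tested by an exact two-sided permutation of the ligature labels within trauma status. The smallest p that this test allows is 0.000408, and p-values were adjusted over the 15 ratios. The test and 13 of the ratios were chosen after the values had been seen. The 9 ratios between one of Ctsk, Acp5 and Ckb and one of Clcn7, Ostm1 and Car2 passed, and the 6 ratios within these sets did not. These sets hold the genes with the larger and the smaller log2 fold changes in these same libraries. This split therefore adds no support beyond those fold changes.

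Ctsk gained on Car2 by 1.54 ± 0.43 (SE, adjusted p = 0.00153), on Clcn7 by 1.45 ± 0.43 (adjusted p = 0.00261) and on Ostm1 by 1.16 ± 0.34 (adjusted p = 0.00383), all on the log2 scale. Acp5 gained on the same genes by 1.66 ± 0.44, 1.57 ± 0.47 and 1.28 ± 0.38, with adjusted p of 0.00204, 0.00204 and 0.00408. Ckb gained on each of them as well. The log2 ratio of Car2 to Ckb fell by 1.75 ± 0.27, that of Clcn7 to Ckb by 1.65 ± 0.37 and that of Ostm1 to Ckb by 1.37 ± 0.31, all at the smallest p and an adjusted p of 0.00153. In the 13 libraries the ratios of Ctsk and Acp5 to Ostm1 no longer passed, at 0.76 (adjusted p = 0.0571) and 0.84 (adjusted p = 0.0657), while the other 7 did.

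Within the sets, the ratio of Ctsk to Acp5 changed by -0.12 ± 0.09 (exact permutation p = 0.209, adjusted p = 0.285) and that of Acp5 to Ckb by -0.09 ± 0.24 (adjusted p = 0.776). The ratio of Clcn7 to Ostm1 changed by -0.28 ± 0.15 (exact permutation p = 0.0763, adjusted p = 0.114). The first passed without trauma replicate 4 (-0.18, adjusted p = 0.0282) and the last without trauma replicate 2 (-0.37, adjusted p = 0.0312). Per kilobase, Ctsk stood at 2.70 to 4.26 times the level of Acp5 over the 16 libraries, while Clcn7 stood at 0.361 to 0.755 times the level of Ostm1.

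**Figure D3:**
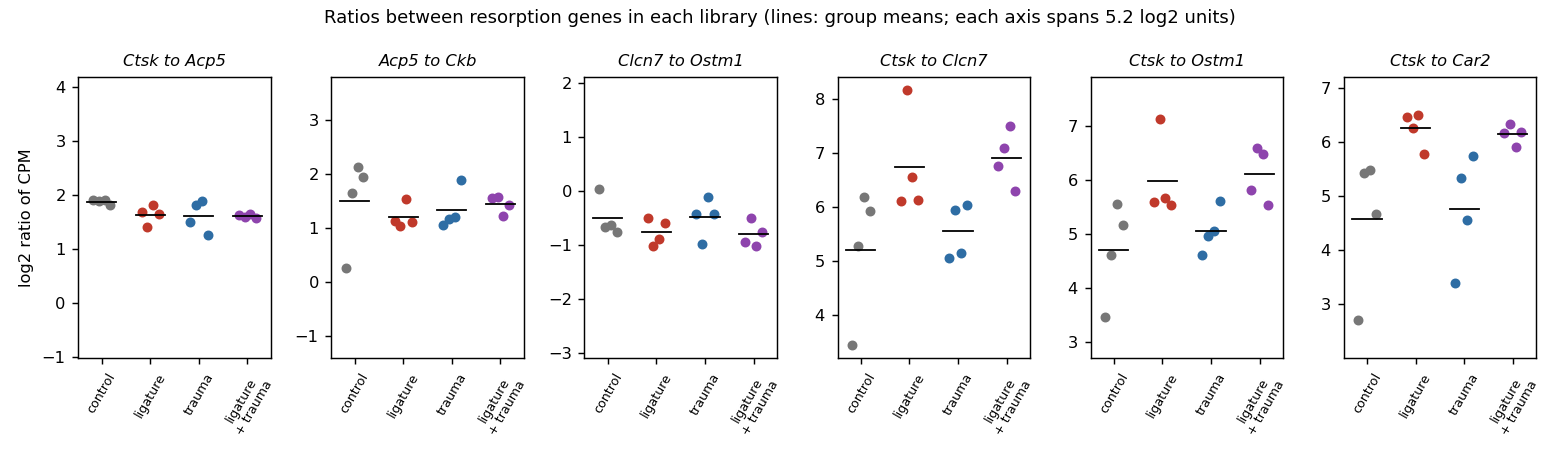
Log2 ratio of the CPM of 2 resorption genes (y axis, the same span of 5.2 log2 units in each panel) in every library of the 4 groups (x axis), with lines at the group means. The 3 ratios on the left differ little between groups, and in the 3 on the right the groups with a ligature have the higher means. The points with and without a ligature overlap for Ctsk to Clcn7 and Ctsk to Ostm1, and for Ctsk to Car2 they are apart by a narrow margin.

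The members also varied together among libraries of 1 group, to unequal degrees. As a description over 16 libraries that share these 4 groups, the correlation of the deviations of log2 CPM from the group means was 0.975 for Ctsk and Acp5. It was 0.737 for Acp5 and Ckb, 0.635 for Ctsk and Ckb and 0.843 for Clcn7 and Ostm1, but -0.07 for Ctsk and Clcn7. In the 13 libraries it was 0.98 for Ctsk and Acp5, 0.609 for Clcn7 and Ostm1 and 0.008 for Ctsk and Clcn7. With Ckb it was 0.753 for Acp5 and 0.663 for Ctsk there. For Ostm1 and Ckb it was 0.199 over 16 libraries and 0.89 over 13, and for Clcn7 and Ckb -0.03 and 0.657. For Ostm1 it was 0.254 and 0.638 with Acp5, and 0.289 and 0.58 with Ctsk. These values depended on the 3 libraries shifted to short transcripts. In the 13 libraries Clcn7 and Ostm1 were less close to each other by this value than either was to Ckb.

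The genes most like each member across the 16 libraries, among 11067 candidates, were chosen by Pearson's r of log2 CPM. For Ctsk they were Acp5 (r = 0.992), the sodium-proton antiporter gene Slc9b2 (r = 0.99) and Dcstamp (r = 0.99), which is needed for cell fusion. For Acp5, besides Ctsk and Slc9b2, the list held the receptor gene Clec12a (r = 0.983). For Clcn7 they were Plekhm1 (r = 0.97), a gene of lysosome traffic, Adcy3 (r = 0.955) and Msn (r = 0.948). For Ostm1 they were Nfatc1 (r = 0.983), the master transcription factor of osteoclasts, Arsb (r = 0.964), of a lysosomal enzyme, and Gnptab (r = 0.962). These values are descriptions over libraries that share 4 groups, and the libraries shifted to short transcripts are among them. Likeness without those libraries was not tested. For Ckb they were Gpr137b-ps (r = 0.983), the macrophage gene Cd68 (r = 0.975) and the proton pump subunit gene Atp6v1c1 (r = 0.975). For Car2 no gene came as close, the first being Tmem204 (r = 0.871), Apbb1 (r = 0.859) and Nek6 (r = 0.858). The r of the deviations from the group means was 0.934 to 0.975 for the genes listed with Ctsk and Acp5. It was 0.901 to 0.956 with Clcn7 and Ostm1, 0.745 to 0.797 with Ckb and 0.767 to 0.816 with Car2.

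Many other genes of acid secretion rose with a ligature too. Of 17 tested genes of acid secretion and ion transport, 11 were higher and 0 lower in ligature against control, with a median log2 fold change of 1.48 against -0.05 for all genes. In ligature plus trauma against trauma 10 were higher and 0 lower, with a median of 1.29, and in trauma against control 0 passed. Over all genes 5.88% and 2.21% were higher in the 2 ligature comparisons. Tcirg1, the pump's osteoclast a3 subunit, rose by 2.39 ± 0.27 (adjusted p = 0.000157) and by 2.21 ± 0.27 (adjusted p = 0.000979) on the log2 scale in the 2 ligature comparisons. The cytosolic pump subunit gene Atp6v1b2 rose by 1.86 ± 0.21 and 1.70 ± 0.21, with adjusted p of 0.000157 and 0.00114. Atp6v0c rose by 1.95 ± 0.23 and 1.29 ± 0.23, and Atp6v1c1 by 1.67 ± 0.20 and 1.40 ± 0.20.

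The pump's d subunit showed a contrast between its isoforms. Atp6v0d2, the isoform enriched in osteoclasts, rose by 2.53 ± 0.49 (adjusted p = 0.00439) and 2.66 ± 0.49 (adjusted p = 0.00703), whereas the broadly expressed Atp6v0d1 was at -0.02 ± 0.16 (adjusted p = 0.952) and -0.10 ± 0.16 (adjusted p = 0.807). Slc4a2, the bicarbonate-chloride exchanger that disposes of the base left by carbonic anhydrase, rose by 1.47 ± 0.30 (adjusted p = 0.00563) and 1.41 ± 0.30 (adjusted p = 0.0131). Among the genes that did not pass, Plekhm1 was at 1.12 ± 0.40 and 1.26 ± 0.40 (adjusted p = 0.0795 and 0.0815).

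Of 17 genes of osteoclast identity and fusion, 8 were higher and 0 lower in each of the 2 comparisons. Their median log2 fold change was 1.25 and 1.29, where 5.88% and 2.21% of all genes were higher. The fusion genes Ocstamp and Dcstamp rose by 3.01 ± 0.40 and 2.94 ± 0.48 in ligature against control, and by 2.87 ± 0.40 and 3.19 ± 0.48 in ligature plus trauma against trauma. Itgb3, of the integrin that forms the seal, rose by 2.2 ± 0.45 and 2.35 ± 0.45, and the receptor gene Oscar by 2.42 ± 0.50 and 2.49 ± 0.50. The count in the second comparison was 4 without trauma replicate 1, trauma replicate 3 or ligature plus trauma replicate 4, and 5 without trauma replicate 2.

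A list of 11 other tested genes covered matrix breakdown and its inhibition. In ligature against control, Ctsz (log2 fold change 1.66 ± 0.25, adjusted p = 0.000965) and the gelatinase gene Mmp9 (2.04 ± 0.33, adjusted p = 0.00145) were higher. The heparanase gene Hpse (-1.56 ± 0.44, adjusted p = 0.0346) was lower there. Ctsz (1.12 ± 0.25, adjusted p = 0.0153) and Mmp9 (1.74 ± 0.33, adjusted p = 0.00729) were higher and 0 genes lower in ligature plus trauma against trauma, a count that was 1 without trauma replicate 3 and in the 13 libraries. The median over the 11 genes was 0.45 and 0.07, and 10.7% and 5.48% of all genes passed in either direction.

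**Figure D4:**
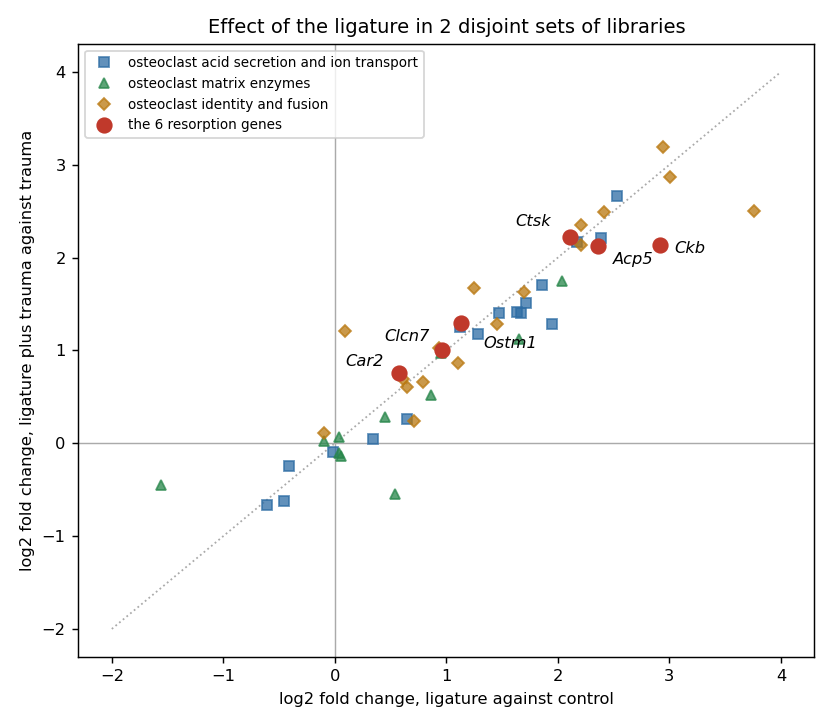
Log2 fold change of ligature against control (x axis) and of ligature plus trauma against trauma (y axis) for the 6 resorption genes (red) and the tested genes of 3 osteoclast lists, with the line of equal change dotted. The comparisons use no library in common. Ctsk, Acp5 and Ckb lie between 2.11 and 2.91 on the x axis, and Ostm1, Clcn7 and Car2 between 0.58 and 1.13.

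Close relatives of the members were looked at by family. Over all tested genes, 10.7% passed in ligature against control and 5.48% in ligature plus trauma against trauma. The short lists of relatives were not tested against these shares. Among 12 tested carbonic anhydrase genes other than Car2, Car9, of the membrane-bound enzyme known from low oxygen, rose in ligature against control (3.24 ± 0.60, adjusted p = 0.00343) and 0 passed in ligature plus trauma against trauma, where Car9 was at 1.59 ± 0.57 (adjusted p = 0.127). Its level stayed low, with 4.26 ± 2.30 CPM in ligature (SD, n = 4) against 0.449 ± 0.153 in control. Per kilobase the mean level of Car2 was 39.3 in control and 58.7 in ligature, and that of Car3, the muscle and fat form, was 30.8 and 12.3 (log2 fold change -1.33 ± 0.64, adjusted p = 0.193). Of the chloride channel family 0 of 5 tested relatives of Clcn7 passed in either comparison, with a median of -0.45 in ligature against control. Clcn4 had the higher level per kilobase, at 27.2 in control and 24.4 in ligature against 9.88 and 19.2 for Clcn7.

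Of the creatine kinases, Ckmt1, a mitochondrial form, fell in ligature plus trauma against trauma (-2.96 ± 0.57, adjusted p = 0.00802). Its level went from 65.4 ± 35.7 to 8.38 ± 5.10 CPM (SD, n = 4). In ligature against control Ckmt1 was at -1.45 ± 0.54 (adjusted p = 0.0942). Of 15 oral epithelium markers, 8 were lower in ligature against control, where 10.7% of all genes passed. In ligature plus trauma against trauma, where 5.48% passed, 12 of these markers were lower, and 0 were higher in either comparison. Their summed level was 1939 to 15950 CPM in control, 2041 to 3471 CPM in ligature, 5735 to 38910 CPM in trauma and 1120 to 3920 CPM in ligature plus trauma, and the part of epithelium in the level of Ckmt1 was not tested. The muscle form Ckm was at 0.150 to 19.0 CPM in control and 0.221 to 118 CPM in ligature. The summed level of 17 skeletal muscle markers, Ckm among them, was 8.24 to 314 CPM in control, 10.1 to 1464 CPM in ligature, 8.86 to 17.2 CPM in trauma and 15.5 to 187 CPM in ligature plus trauma, and 0 of the 16 tested passed in these comparisons. Ckb rose in ligature against control without the 3 libraries with the most muscle RNA (control replicate 3 and ligature replicates 2 and 3), at a log2 fold change of 2.97 (adjusted p = 0.00136). Of the acid phosphatases 0 of 4 relatives of Acp5 passed. Of 13 other cathepsins Ctsz and Ctsa (0.74 ± 0.22, adjusted p = 0.0433) were higher and Ctsf (-1.10 ± 0.28, adjusted p = 0.0215) lower in ligature against control.

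Markers of monocytes and macrophages, the lineage from which osteoclasts form and of which some can express Acp5 and Ctsk, moved in both directions. Of 15 markers, 4 were higher in ligature against control (Cd68 2.50, Cd14 2.50, Csf1r 1.46 and Itgam 1.22 on the log2 scale) and 3 were lower (Cd163 -2.82, Mrc1 -1.72 and Adgre1 -1.13). Of all genes 10.7% passed there in either direction. In ligature plus trauma against trauma, where 5.48% of all genes passed, 2 of the markers were higher and 2 lower. Their summed level was 1682 to 2520 CPM in control, 2718 to 3991 CPM in ligature, 1410 to 3007 CPM in trauma and 2808 to 4122 CPM in ligature plus trauma, and no marker was at 0 in a whole group. The correlation of deviations from the group means with this list was 0.765 for Ctsk and 0.788 for Acp5 over 16 libraries. It was 0.644 and 0.706 with Schwann cell markers, 0.66 and 0.618 with ligament fibroblast markers and -0.622 and -0.653 with oral epithelium markers. With the 3 osteoclast lists it was 0.452 to 0.539 for Ctsk and 0.491 to 0.548 for Acp5. The part of macrophages in the rise of the resorption genes was not tested.

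Some markers of other cells of the tissue were lower with a ligature. In ligature against control, 8 of 12 osteoblast markers were lower and 0 higher (median log2 fold change -1.20), with a summed level of 18430 to 27520 CPM in control and 14370 to 17160 CPM in ligature. Of 12 ligament fibroblast markers 4 were lower and 1 higher (median -0.68), and of 10 Schwann cell markers 5 were lower and 0 higher (median -1.22). In ligature plus trauma against trauma the counts were 3 lower of the osteoblast markers, 2 lower and 1 higher of the ligament fibroblast markers, and 0 of the Schwann cell markers. The shares of all genes that passed in either direction were 10.7% and 5.48% in these comparisons. The osteoblast sum was 14820 to 22180 CPM in trauma and 11640 to 17040 CPM in ligature plus trauma. The Schwann cell sum was 461 to 702 CPM in control, 260 to 379 CPM in ligature, 300 to 673 CPM in trauma and 330 to 564 CPM in ligature plus trauma. No marker of these 3 lists was at 0 in a whole group, and their part in the levels of the resorption genes was not tested.

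The 6 genes together took 0.104% to 0.387% of the scaled counts in control and 0.128% to 0.383% in trauma. With a ligature they took 0.966% to 1.4%, and with ligature plus trauma 0.945% to 1.19%. Ctsk made up most of this share in every library, and the ranges with and without a ligature did not meet.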

How the data were processed

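The authors' deposited table holds raw read counts, as whole numbers by gene, for each of 16 libraries. Build GRCm39 and the tools DESeq2 1.32.0, StringTie 2.1.7, HISAT2 2.2.1, FastQC 0.11.9 and Trimmomatic 0.39 are named in the submitters' processing notes, with no roles. Which tool counted reads, with which annotation release and strand setting, is not given in the sources used here, so reads of overlapping genes cannot be told apart. Symbols were found for 52083 of 55359 identifiers, and the rest held 0.205% of counts. Exon lengths came from GENCODE M21, a GRCm38 annotation, and promoters from RefSeq, GRCm38.p6, which held a window for 5 of the 6 genes.

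Counts were tested in 1 fit of all 16 libraries and 4 groups (12 residual degrees of freedom) by the quasi-likelihood method of edgeR 4.0.16 in R 4.3.3, after scaling by trimmed means and filtering with filterByExpr (minimum count 10). Benjamini-Hochberg adjustment was over 20953 genes, and genes passed at an adjusted p under 0.05. CPM is the count relative to the scaled library total. With 58458102 or more counts per library, differences among libraries outweigh counting error for these genes. The highest correlation between any 2 libraries was 0.948, so none was taken for a repeat of another.

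Alternatives were DESeq2 1.42.0, DESeq2 size factors, limma 3.58.1 (voom with sample weights), no filter, a filter of 50 counts in 4 libraries, the compared groups alone, the replicate number as a block, each library left out, the 13 libraries with the usual length trend, and removal of that trend by a spline (5 degrees of freedom). A fit without the 3 libraries richest in muscle RNA and the ratio tests were added after seeing the data. The 6 genes, the gene lists and the 13-library alternative were chosen with earlier results of these data known. From each list the text names up to 4 genes of lowest p, relatives of the 6 genes, and for each of the 6 the 3 genes with the highest r among those with a mean log2 CPM of at least 2. Atp6v0d1, Plekhm1, Slc4a2, Atp6v0d2, Ctsb and the macrophage genes beyond 4 were named after their values were seen.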

Additional observations from a re-analysis of the deposited data

Results flagged for a closer look

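In each of the 24 sets of 4 libraries (6 genes in 4 groups), the gap of the highest or lowest library to its nearest neighbour was compared with the range of the set, and 2 sets passed Dixon's critical value. Chance alone flags about 1 in 20 such sets. Ostm1 in trauma replicate 3 was at 26.0 CPM, against 49.2 CPM in the next library of the group, a gap of 0.884 of the range. The same library was the lowest of its group for Ctsk, Acp5, Clcn7, Car2 and Ckb. Its oral epithelium markers summed to 38910 CPM, against 5735 to 13350 CPM in the other trauma libraries, and its macrophage (1410 CPM) and ligament fibroblast (47500 CPM) sums were the lowest of the group. The part of this make-up in the level of Ostm1 was not tested. Car2 in trauma replicate 1 was at 122 CPM, against 44.8 CPM in the next library, a gap of 0.901 of the range. Its erythroid markers had the highest mean log2(CPM + 1) of the group, 5.69, but their sum of 6659 CPM was below the 7121 CPM of trauma replicate 4, and their part in the level of Car2 was not tested.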

How the results depend on the processing

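The count of members that passed stayed within 1.5 times its main value in all 26 alternatives. It was 3 to 5 (main 4) in ligature against control and in ligature plus trauma against trauma, and 3 to 4 (main 3) in ligature plus trauma against control. It was 0 in trauma against control, in ligature plus trauma against ligature and in the interaction, under every alternative that could be fitted. No member reversed a call. Ctsk and Ckb passed under all 26 alternatives in the 3 ligature comparisons, and so did Acp5 with the 1 exception given for the 13 libraries. Over left-out libraries, the log2 fold change in ligature against control was 1.81 to 2.37 for Ctsk, 2.06 to 2.60 for Acp5, 2.69 to 3.11 for Ckb, 0.91 to 1.35 for Ostm1, 0.64 to 1.21 for Clcn7 and 0.38 to 0.73 for Car2. Ostm1 in ligature against control also lost its call with no filter (adjusted p = 0.0617) and with the compared groups alone (adjusted p = 0.0596), and Clcn7 gained one with DESeq2 (adjusted p = 0.0462), with voom (1.15, adjusted p = 0.00846) and without the 3 muscle-rich libraries (1.36, adjusted p = 0.0486). The identity and fusion list had 13 genes higher with voom in ligature against control, against 8.

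The replicate numbers are shared between groups. Over 1000 genes the correlation of deviations between same-numbered libraries was -0.224 to 0.267 (median 0.0329), over 0.1 in 5 of 24 pairs. Between libraries of different number and group the median was -0.0045. No strong pairing by number was seen, and these values cannot exclude a weak one. With the replicate number as a block, 4, 4 and 3 members passed in the 3 ligature comparisons and 0 in the others, each as without it. Ostm1 in ligature against control was then at 1.06 (adjusted p = 0.0495). The number of libraries, 4 per group, limits what could be detected.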
